A study of Capsicum annuum with 6 samples.

Results

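In the first branch junction of pepper (Capsicum annuum), 154 annotated genes had reads in every library of compact accession B010 and next to none in any library of loose accession B003. These genes were chosen from the counts themselves. Each had at least 10 counts in each of the 3 B010 libraries and at most 3 counts in each of the 3 B003 libraries. They are 0.718% of the 21446 annotated genes considered, that is, those with an identifier of the cv.59 genome that lie outside 2 stretches around GWAS candidates on chromosomes 4 and 7. B010 forms a small first branch angle and B003 a large one, and no treatment was applied to either. Tissue was taken at the early flowering stage, and each library pooled 8 plants, with 3 replicates per accession. Each accession is a single germplasm line, so a difference belongs to these 2 lines, and other traits in which they differ cannot be told apart from the branch angle. The identifiers are not paired with gene names or functions in the deposited values, and none of the 154 matched the RefSeq gene table of pepper. The genes are therefore given by identifier, and the tissue could not be checked against marker genes.

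Accessions of one crop species share most of their genes but differ in some. A gene can be missing from the genome of one accession, can be present and silent, or can differ so much in sequence that its reads no longer align to the reference of another line. Such genes often lie in families of neighbouring copies, of which different members are kept or transcribed in different lines. A count of 0 does not tell these cases apart, and which of them applies to the 154 genes was not tested. In bulk tissue, fewer cells that transcribe a gene and less transcript per cell cannot be told apart either.

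The total counts per library lay between 29891192 and 47659515, over 24829 listed genes and loci. Levels are given as CPM (reads of a gene per 1000000 in the library, with TMM scaling) and, where genes are compared with each other, as the deposited FPKM, which also divides by exon length. The listed genes had already passed a minimum, since every one had at least 33 counts in its highest library. In the fit over all genes (edgeR's quasi-likelihood test, adjusted p of at most 0.05 and log2 fold change of at least 1), 3088 of 24738 tested genes, or 12.5%, were called higher in B010. Of the 154 genes, 153 passed the expression filter and 153 were called, which the choice of the genes from this contrast makes near certain and which is given only as a description. The gene left untested was Capann_59Chr04g030300, with 14, 175 and 124 counts in B010 and 0, 3 and 0 counts in B003.

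As a group, the 154 genes were transcribed at a low level in B010. Their summed level was 893, 911 and 915 CPM in B010 replicates 1, 2 and 3, against 1.53, 2.00 and 1.59 CPM in B003 replicates 1, 2 and 3. The sums of the B010 libraries lay close together although single genes varied far more, as described below. The mean level of a gene in B010 ran from 0.910 to 81.2 CPM with a median of 2.78 CPM, whereas the median over all 21446 annotated genes was 15.9 CPM. A level of 10 CPM or more was reached by 19 of the 154 genes, or 12.3%, and by 60.9% of all annotated genes. The 10 most abundant members held 39.7% of the summed level. The heat map of all members by library shows this gradient in B010 and the near absence of reads in B003.

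**Figure D1:**
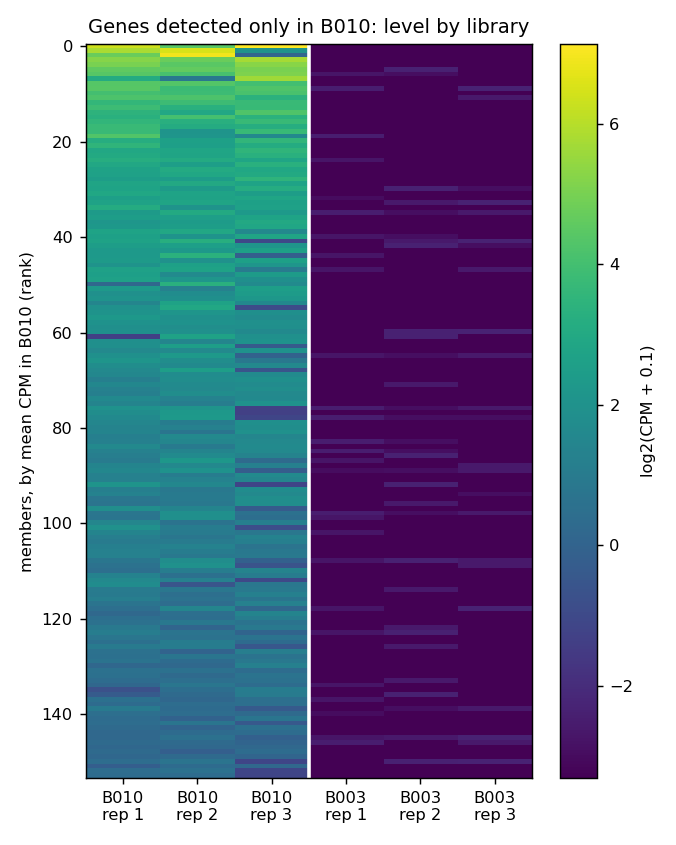
Level of the 154 genes (rows, ordered by mean CPM in B010) in the 3 libraries of B010 (left) and the 3 of B003 (right), as log2(CPM + 0.1). Every row is brighter in B010, single rows are dark in 1 B010 library, most often replicate 3, and the B003 side is at or near the bottom of the scale.

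Of the 154 genes, 105, or 68.2%, had 0 counts in all B003 libraries. Taking 3 counts over the B003 libraries together as the limit that 0 counts allow (0.0297 CPM), the pooled level of these 105 genes (summed counts over the summed scaled library sizes) was at least 31.2-fold to at least 2852-fold higher in B010, with a median bound of 97.9-fold. These bounds cover counting error only and take each count as a separate read. Another 28 genes had 1 to 3 counts over the 3 B003 libraries, and 21 had 4 to 7. For the 49 genes with any count in B003, the ratio of the pooled levels ran from 15.6-fold to 896-fold with a median of 92.7-fold. Reads in B003 were spread over its libraries: 27, 31 and 23 of the 154 genes had a count in replicates 1, 2 and 3. Among the 81 values above 0 in B003, 18 were 1, 36 were 2 and 27 were 3. Over all listed genes, 73 library values were 1 and 290 were 2. The program that counted the reads and its handling of read pairs are not given in the sources used here, so a value of 2 may stand for a single read pair. In that case the bounds above and the counting intervals below would be too tight.

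The most abundant member was Capann_59Chr08g007710, with 3878, 585 and 4770 counts in B010 and 0 counts in each B003 library. Its mean level in B010 was 81.2 ± 59.7 CPM (SD, n = 3). Its pooled level in B010 was 84.7 CPM, at least 2852-fold higher than in B003. Replicate 2 of B010 stood at 21.2 CPM, well below 81.7 and 141 CPM in replicates 1 and 3. Capann_59Chr03g041460 had 2674, 2514 and 137 counts in B010 and 0 in each B003 library. Here replicate 3 of B010 was the low one, at 4.04 CPM against 56.3 and 91.1 CPM. Capann_59Chr08g028040 had 1260, 3309 and 34 counts in B010, a highest level 119.7 times the lowest, and also 0 counts in each B003 library. Capann_59Chr03g022740 and Capann_59Chr02g017170 were steadier, at 39.2 ± 13.2 CPM and 31.4 ± 8.60 CPM in B010 (SD, n = 3), again with no count in B003.

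Among the next 5, Capann_59Chr01g055750 had 1125, 668 and 1108 counts in B010 and 0, 3 and 0 counts in B003. The ratio of its pooled levels was 896-fold, with a 95% counting interval from 306 to 4347. Capann_59Chr03g036600 had 1024, 474 and 1180 counts in B010 and 2, 1 and 0 counts in B003, a ratio of 827-fold (95% counting interval 283 to 4013). Both genes were thus close to the detection limit in B003 and not proven to be at 0. Capann_59Chr02g019330 had 407, 48 and 1688 counts in B010 and none in B003. Capann_59Chr09g026430 was the steadiest of the 10, with 20.6, 20.3 and 15.7 CPM in B010 replicates 1, 2 and 3 and 0 counts in each B003 library. Capann_59Chr01g026340 had 1013, 378 and 644 counts in B010 and 3, 0 and 3 counts in B003, for a ratio of 314-fold (95% counting interval 144 to 857). In none of the 10 genes did the lowest B010 library come near the highest B003 library, which the choice of the genes ensures.

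**Figure D2:**
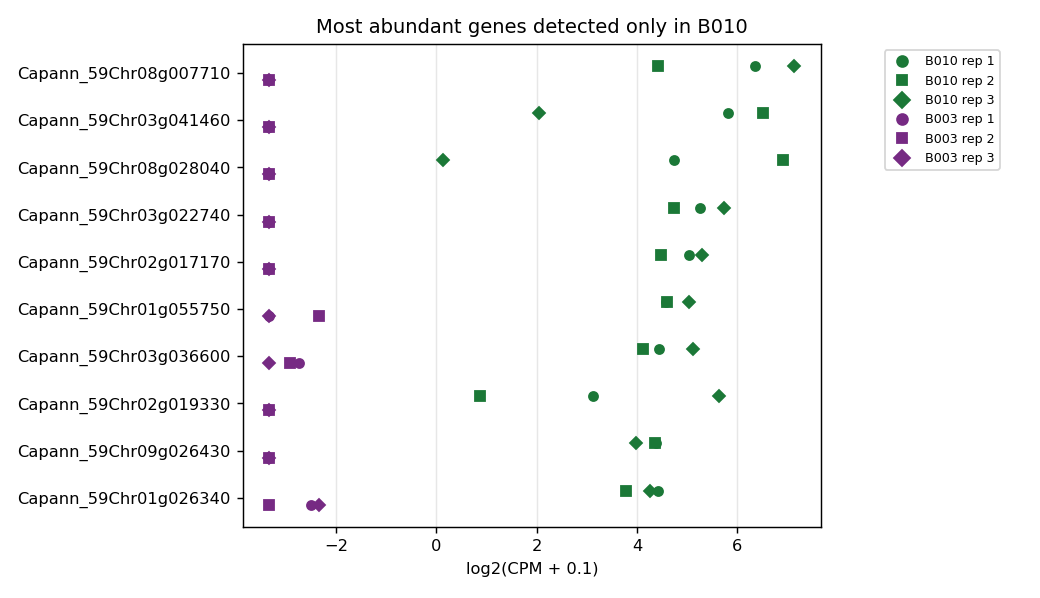
Level of the 10 most abundant members in each library, as log2(CPM + 0.1) on the horizontal axis, with B010 in green and B003 in purple and a marker shape per replicate. The B010 points of Capann_59Chr08g028040, Capann_59Chr02g019330 and Capann_59Chr03g041460 are the most scattered, and 7 of the 10 genes have all B003 points at 0 counts.

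Per exon length, the order changed. Capann_59Chr03g036600 ranked first among the members at 128 ± 61.3 FPKM in B010 (SD, n = 3), followed by Capann_59Chr03g041460 at 127 ± 106 FPKM and Capann_59Chr08g007710 at 91.7 ± 73.7 FPKM. The leading pair differed by far less than their spread between libraries. Even the highest of these ranked only 677th of the 21446 annotated genes by mean FPKM in B010. Capann_59Chr03g029250 reached 34.4 ± 9.41 FPKM with 641, 237 and 310 counts in B010 and none in B003. Capann_59Chr05g006200 reached 32.2 ± 5.27 FPKM with only 104, 82 and 92 counts, since its exons are very short. The median over the 154 genes was 3.55 FPKM in B010, against 10.3 FPKM over all annotated genes, so the low level was also seen per length.

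The members were short. Counts divided by FPKM give the exon length of a gene relative to other genes, and the highest and lowest library differed in it 1.00-fold at the median. The median member had 0.509 of the exon length of the median listed annotated gene, and 121 of 154, or 78.6%, were shorter than that gene. Capann_59Chr05g006200 had 0.0494 and Capann_59Chr03g036600 had 0.120 of that length, whereas Capann_59Chr08g028040 had 1.24. Genes chosen in the mirrored way for B003 were similarly short, as given further below, so short exons were seen in both sets. A short gene gathers fewer counts at a given level, so length and the limit on counts are not independent of each other.

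Replicates of B010 differed more for these genes than for annotated genes at large. The median coefficient of variation over the 3 B010 libraries was 0.269 for the 154 genes and 0.153 for all annotated genes, which have higher counts. At the steady end, Capann_59Chr03g032190 had 170, 97 and 121 counts, which came to 3.56 ± 0.0338 CPM in B010 (SD, n = 3). Capann_59Chr07g018240 had 1.04 ± 0.0267 CPM in B010, and Capann_59Chr11g009940 had 3.90, 3.88 and 3.72 CPM in B010 replicates 1, 2 and 3. These 3 genes had no count in B003. At the other end stood Capann_59Chr02g019330 and Capann_59Chr08g028040, given above, and Capann_59Chr01g016870 with 930, 118 and 98 counts in B010 and 3, 0 and 0 counts in B003. The highest B010 library exceeded the lowest at least 5 times in 22 genes, or 14.3%, and in 4.89% of all annotated genes.

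Most of these uneven genes were low in the same library. In 12 of the 154 genes, or 7.79%, replicate 3 of B010 lay at least 5 times below both other B010 libraries. Replicate 1 was that low in 1 gene and replicate 2 in 0 genes. Over all annotated genes, replicate 3 was that low in 2.35%, replicate 1 in 0.145% and replicate 2 in 0.326%, so the library stood apart among genes at large as well. Among the 12, Capann_59Chr10g026130 had 160, 128 and 10 counts in B010 and Capann_59Chr03g040650 had 187, 115 and 10, the lowest single counts of any member. Capann_59Chr08g001650 had 302, 254 and 13 counts in B010 and 0, 2 and 3 counts in B003. Beside these 12 genes lay 14 listed neighbours that were not members, and 5 of these showed the same drop in replicate 3. One is Capann_59Chr03g041450, the neighbour of Capann_59Chr03g041460, at 714, 1057 and 79.5 CPM in B010 and 6.72, 70.0 and 37.8 CPM in B003. Another is Capann_59Chr10g026120, the neighbour of Capann_59Chr10g026130, at 463, 646 and 39.6 CPM in B010 and 1.02, 35.1 and 0.456 CPM in B003. These neighbours were named after their values were seen. What sets replicate 3 apart was not tested. Without it, 172 genes met the limits, 18 more than with it.

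**Figure D3:**
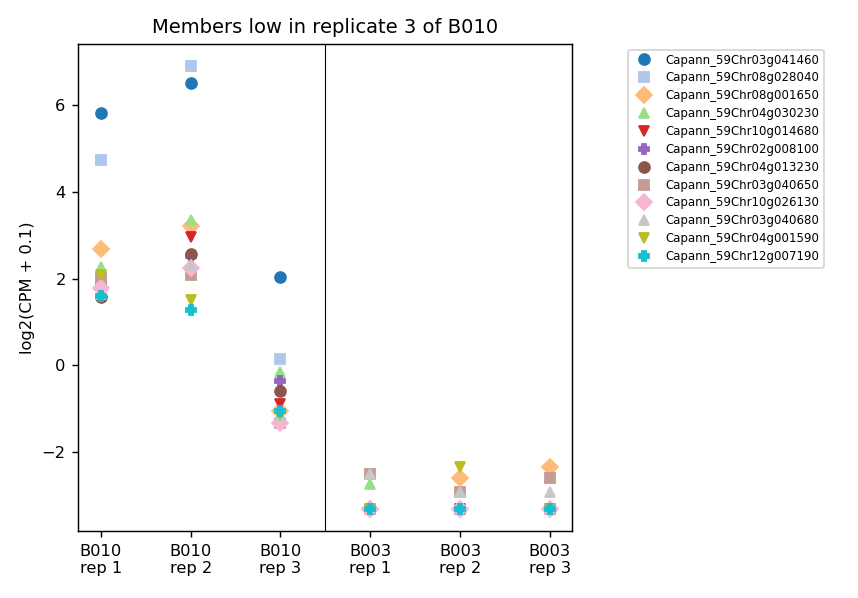
Level of the 12 members whose replicate 3 in B010 lay at least 5 times below both other B010 libraries, as log2(CPM + 0.1), with a symbol per gene, B010 on the left and B003 on the right. In every gene the replicate 3 point lies between the other B010 points and the B003 points.

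The limits cut through a continuum on the side of B003. A highest B003 count of 3 was found in 24 members, and 69 further genes met the limit in B010 but had a highest B003 count of 4 to 6. Just inside stood Capann_59Chr03g038870, with 76, 94 and 28 counts in B010 and 2, 3 and 2 in B003, and Capann_59SC004000190, with 51, 39 and 28 counts in B010 and 2, 2 and 3 in B003. Capann_59SC004000190 lies on a scaffold outside the chromosomes and had the smallest ratio of pooled levels, 15.6-fold. Just outside were more abundant genes such as Capann_59Chr11g027230, with 1608, 855 and 1293 counts in B010 and 0, 0 and 4 in B003. Capann_59Chr09g001890 had 1123, 433 and 1094 counts in B010 and 4, 3 and 4 in B003, and Capann_59Chr02g013450 had 850, 367 and 550 counts in B010 and 6, 3 and 2 in B003. A fixed number of counts in B003 thus left out some genes with a larger ratio than members that were kept.

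On the side of B010 few listed genes lay near the limit. Every listed gene had at least 33 counts in its highest library and at least 87 summed over all libraries. A gene near 10 counts in every B010 library and near 0 in B003 was therefore not listed, which lowers this number in advance. The lowest B010 count was under 20 in 15 members and at least 100 in 48, and 10 genes missed the limit with a lowest count of 5 to 9. After the 2 members with a lowest count of 10, named above, 5 members had a lowest count of 12, among them Capann_59Chr01g014630 with 59, 38 and 12 counts in B010. Just outside were Capann_59Chr01g054670, with 515, 558 and 5 counts in B010 and 2, 3 and 0 in B003, and Capann_59Chr09g029410, with 333, 201 and 6 counts in B010 and none in B003. Capann_59Chr03g000950 had 194, 143 and 8 counts in B010 and 3, 0 and 0 in B003. All 3 fell short through replicate 3 of B010.

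The limits were also applied to fewer libraries, which describes how such a choice carries over to a further library and is no independent check of the 154 genes, since these meet the limits in every library by definition. When the same limits were applied to 4 libraries only, leaving out 1 library of each accession, between 174 and 221 genes were chosen over the 9 possible choices. In the B010 library left out, 88.6% to 98.5% of them had at least 10 counts. The low end of this range came from replicate 3, where the share was at most 90.0%. In all annotated genes the share was 97.7% to 98.5%, so the high count in B010 says little by itself. In the B003 library left out, 77.3% to 90.2% of the chosen genes had at most 3 counts, against 1.33% to 1.59% of all annotated genes. In each of the 9 choices, the chosen genes that also met both limits in the libraries left out were exactly the 154, by definition. They made up 69.7% to 88.5% of the genes chosen. All these shares describe the wider sets chosen on 4 libraries and are no replication of the 154 genes.

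The 154 genes were spread over all 12 chromosomes. Chromosome 3 held the most, 19 of 2713 annotated genes, and chromosome 8 the fewest, 5 of 1813. As a share of the annotated genes, chromosome 7 led with 1.02%, followed by chromosome 12 with 16 of 1589 genes and chromosome 11 with 0.993%, and chromosome 8 was last with 0.276%. Chromosomes 2, 10 and 1 came next from the low end, at 0.433%, 0.571% and 0.594%. These shares rest on 5 to 19 genes per chromosome, and whether chromosomes differ was not tested. Although chromosome 8 had only 5 members, these summed to 142 CPM in B010, the second-highest sum after 174 CPM on chromosome 3, because it carries Capann_59Chr08g007710 and Capann_59Chr08g028040. The remaining 3 genes lay on scaffolds outside the chromosomes. Of the 98 scaffold genes listed, these are 3.06%, a share that rests on 3 genes.

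**Figure D4:**
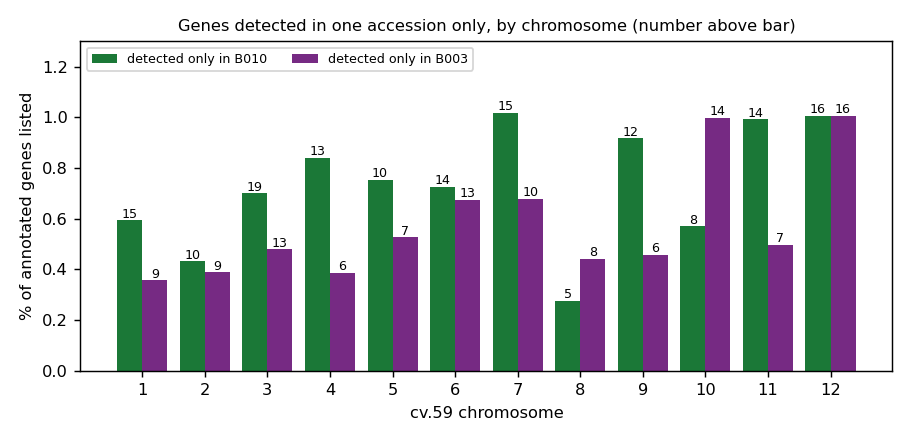
Share of the listed annotated genes of each cv.59 chromosome that were detected only in B010 (green) or only in B003 (purple), with the number of genes above each bar. Green bars run from 0.276% on chromosome 8 to 1.02% on chromosome 7, and the purple bars are highest on chromosomes 10 and 12.

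Most members stood alone in the order of identifiers. Identifiers of cv.59 are numbered along each chromosome in steps of 10. Taking identifiers 1 step apart as neighbours, 24 of the 154 genes, or 15.6%, lay beside another member. They formed 12 pairs and no longer run, with 4 pairs on chromosome 9, 3 on chromosome 11, 2 each on chromosomes 6 and 7 and 1 on chromosome 12. The pair with the most reads was Capann_59Chr09g015730 and Capann_59Chr09g015740, at 7.40 ± 1.02 CPM and 15.9 ± 1.53 CPM in B010 (SD, n = 3), both with 0 counts in each B003 library. Next came Capann_59Chr09g017380, with 365, 156 and 334 counts in B010, and Capann_59Chr09g017390, with 237, 64 and 193. In this pair both genes were lowest in replicate 2 of B010, and neither had a count in B003. In the pair of Capann_59Chr11g030470 and Capann_59Chr11g030480, the B010 counts were 244, 224 and 168 for the first gene and 317, 211 and 98 for the second. Capann_59Chr11g030450, with 881, 504 and 352 counts in B010, lay 2 steps before this pair and made it a group of 3 when identifiers up to 5 steps apart were joined. Among the 120 genes detected only in B003, 16, or 13.3%, lay beside another such gene, in 8 pairs. Members made up 0.718% of the annotated genes considered. The share beside a member that random placement would give was not computed.

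Levels within a pair ranged from near equal to several-fold apart. The higher gene exceeded the lower 1.40-fold at the median of the 12 pairs, and 2-fold or more in 3 pairs. The most alike were Capann_59Chr09g002080, with 111, 69 and 100 counts in B010 and 3, 1 and 0 in B003, and Capann_59Chr09g002090, with 106, 74 and 100 counts in B010 and 3, 1 and 0 in B003. Their relative exon lengths were 0.384 and 0.385. Reads could be shared between such neighbours if they are near-identical copies, so both counts are uncertain. The most unlike were Capann_59Chr12g035310 at 8.15 CPM and Capann_59Chr12g035320 at 1.22 CPM in B010. The pairs depended on the limits. With 0 counts asked of every B003 library, 10 genes lay beside another member, and with B003 replicate 2 left out 38 did.

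Identifiers beside the members were often missing from the table. Of the 308 places 1 step before or after a member, 158, or 51.3%, held no listed gene, against 37.9% for all annotated genes and 51.7% for the genes detected only in B003. Another 24 places held a member. The rest held 125 genes that were not members, and these were not used in the choice.

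Of these 125 neighbours, 36, or 28.8%, passed the test as higher in B010 (edgeR's quasi-likelihood test), and 14, or 11.2%, passed it as higher in B003. Among all annotated genes that were not members, the share higher in B010 was 10.7% and the share higher in B003 was 12.7%. A log2 fold change of 3 or more was found in 20% of the neighbours and in 2.98% of the other genes. The median log2 fold change of the neighbours was 0.08, so most of them did not share the difference. The share was lower at greater distances: at 2 steps from the nearest member 14.3% of 112 genes were called higher in B010, at 3 steps 11.7% of 111, and beyond 50 steps 10.2% of 16011. The neighbours of the 105 genes with no count in B003 gave nearly the same share, 26.1% of 88. Reads shared among copies or overlapping genes could add to the counts of both, which was not tested, and the use of strand in the counting is not given in the sources used here.

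**Figure D5:**
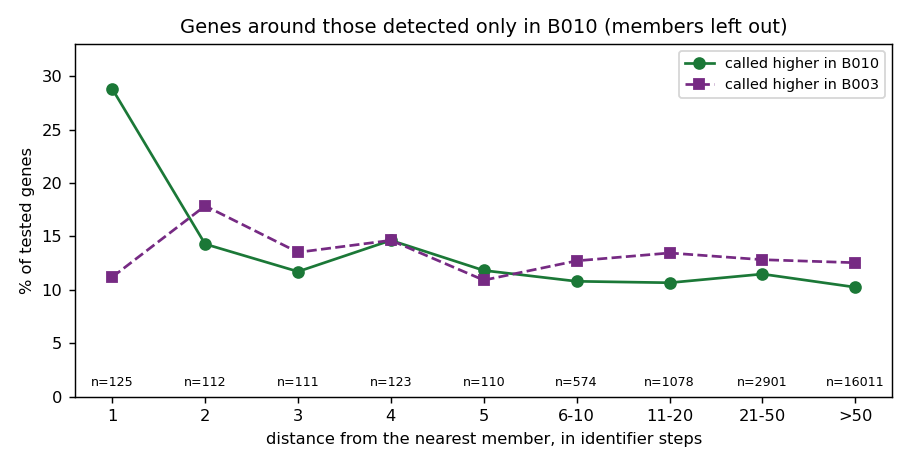
Share of tested annotated genes called higher in B010 (green) and higher in B003 (purple) by distance from the nearest gene detected only in B010, in identifier steps, with the members themselves left out and the number of genes per point below. The green line starts at 28.8% for the nearest place and lies between 10.2% and 14.6% at all greater distances.

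Some of these neighbours had few counts in B003, and the 3 described here were named after their values were seen. Capann_59Chr01g055760, beside Capann_59Chr01g055750, had 342, 232 and 423 counts in B010 and 0, 5 and 0 in B003. On the log2 scale it was 7.44 ± 0.92 (SE) higher in B010, with an edgeR adjusted p of 0.00309. Capann_59Chr10g021390 had 423, 111 and 296 counts in B010 and 8, 1 and 3 in B003. Its neighbour Capann_59Chr10g021400, a member, had 650, 116 and 442 counts in B010 and none in B003, so both were lowest in replicate 2 of B010. Capann_59Chr12g035330 extended the pair of Capann_59Chr12g035310 and Capann_59Chr12g035320, with 613, 327 and 342 counts in B010 and 11, 12 and 13 in B003. In 11 of the 36 neighbours called higher in B010, each B003 library had at most 10 counts. The matching share among the other annotated genes called higher in B010 was not computed.

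In 5 places a gene that was far higher in B003 lay directly beside a member. Capann_59Chr10g018180, a member, had 109, 48 and 61 counts in B010 and none in B003, while Capann_59Chr10g018170 next to it had none in B010 and 226, 127 and 242 in B003. This was the only neighbour that met the mirrored limits for B003. Capann_59Chr04g016260 had 125, 178 and 102 counts in B010 and none in B003, whereas Capann_59Chr04g016270 had 6, 3 and 6 in B010 and 286, 218 and 231 in B003. On the log2 scale, the difference of Capann_59Chr04g016270 was -5.69 ± 0.25 (SE), with an edgeR adjusted p of 0.000657. Beside the pair of Capann_59Chr09g002080 and Capann_59Chr09g002090 lay Capann_59Chr09g002070, with 4, 0 and 4 counts in B010 and 107, 248 and 121 in B003. The other places had abundant genes: Capann_59Chr03g036590 beside Capann_59Chr03g036600 averaged 24.9 ± 11.9 CPM in B010, and its B003 libraries averaged 209 ± 71.0 CPM (SD, n = 3 each). Capann_59Chr02g030500 beside Capann_59Chr02g030510 had 2494, 825 and 2515 counts in B010 and 15992, 45335 and 51111 in B003. These 5 are 4% of the neighbours, and 2.92% of the other annotated genes also had a log2 fold change of -3 or less. The 5 genes were described after their values were seen.

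None of the genes that the study names by a cv.59 identifier in its text or primer list was a member. These are 11 genes, among them genes of auxin signaling and zeatin biosynthesis. Another 2 are GWAS candidates, which lie in the stretches left out. A further auxin signaling gene that the study names lies outside the cv.59 annotation, so it could not be a member. Among the 11, the edgeR test called 3 higher in B010 and the other 8 higher in B003. The auxin signaling gene Capann_59Chr12g012110, for example, had 137, 84 and 192 counts in B010 and 20, 28 and 15 in B003, and so had reads in every library of both accessions. Auxin controls the direction and elongation of shoot growth, and zeatin is a cytokinin that promotes the outgrowth of buds. Since the study picked them with these libraries in view, their calls are no independent evidence.

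The mirrored limits, applied to the same 21446 genes, gave 120 genes detected only in B003, or 0.560%. They resembled the 154 genes in level and length, with a median of 2.97 CPM in B003 and a median relative exon length of 0.469. Their median coefficient of variation over the B003 libraries was 0.300, close to 0.269 for the B010 genes in the B010 libraries. The most abundant gene of this kind reached 31.9 CPM in B003, below 81.2 CPM for Capann_59Chr08g007710 in B010. In B010, 60.8% of these 120 genes had no count in any library, somewhat below the 68.2% in the reverse case. By chromosome, both sets had 16 genes on chromosome 12, while chromosome 10 held 8 genes detected only in B010 and 14 detected only in B003, and chromosome 9 held 12 and 6. Chromosomes 1 and 2 had low shares in both sets, at 0.594% and 0.433% for B010 and 0.357% and 0.389% for B003. Of the 100 tested neighbours of the B003 genes, 14% were called higher in B010 and 20% were called higher in B003. At 2 steps 21.4% of 103 genes were called higher in B003, and beyond 50 steps 11.7% of 16607. Whether the numbers in the 2 directions differ was not tested. The limits are plain counts and take no account of library depth, which differed between libraries. With counts scaled to the smallest library, 151 genes were detected only in B010 and 127 only in B003. Among the LJ_newGene loci, which lie outside the cv.59 annotation, 182 of 3169, or 5.74%, met the limits for B010. Those for B003 were met by 143 of these loci.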

How the data were processed

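RNA of the first branch junction of accessions B010 and B003 was sequenced in 6 libraries, 3 per accession. The authors filtered paired reads of 150 bases and aligned them with HISAT2 v2.1.0 to the cv.59 genome. The submitters' notes also name StringTie. The counts that the authors deposited are whole numbers per gene without normalization, and the FPKM that the authors deposited divide them by exon length and mapped reads. Reads of both accessions were placed on one reference, so a transcript that differs much from cv.59 gathers fewer counts. The log2 fold changes and the p-values in the authors' deposited table hold their own comparison and were not used. Column names were matched to accessions by the first line of the table and to replicates by their last digit.

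The test across all genes was that of edgeR 4.0.16, run in R 4.3.3 on the counts (TMM, its expression filter, quasi-likelihood test, Benjamini-Hochberg adjustment over 24738 genes), B010 over B003, over all 6 libraries. P-values weigh the difference between the accessions against the spread between pooled samples of the same accession. The SE of a log2 fold change was derived from the test, as the absolute fold change over the square root of its F statistic. It is therefore rough, above all where counts are near 0. Intervals on ratios are exact binomial intervals at 95%. They cover counting error only and take each count as a separate read. The 91 genes that were filtered out were not tested. The members, the lists and the rules for named genes were chosen with earlier results of these data known. Named genes were the 10 members with the highest CPM, the 5 with the highest FPKM, those of the 3 pairs with the most reads, those with the highest and lowest variation, those nearest to each limit on both sides, and any named by the study. Further genes of pairs, neighbours and members beside them, and Capann_59Chr04g030300, Capann_59Chr08g001650 and Capann_59Chr12g012110 were chosen after their values were seen. The edgeR fit was checked on simulated counts. Alternatives were DESeq2 1.42.0, limma 3.58.1 on log2(FPKM + 1) and log2(FPKM + 0.1), other scaling and filters, other limits, the replicate number as a block and each library left out. Libraries of one accession differed beyond sampling noise (chi-square per degree of freedom at least 28.7), so none was counted as deposited more than once.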

Additional observations from a re-analysis of the deposited data

How the results depend on the processing

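The number of members depended on the limits. It was 84 with at least 50 counts asked of each B010 library, 294 with up to 10 counts allowed in each B003 library and 336 with the LJ_newGene loci included. It stayed within 1.5 times of 154 under the other limits, from 105 to 164, and ran from 157 to 199 when 1 library was left out. The mirrored number for B003 was 73 with 0 counts asked of B010, and 121 to 148 with 1 library left out. Leaving out a library removes a limit, so in both directions the number can only stay or rise. Genes lying beside another member numbered 10 with 0 counts asked of B003, 47 with identifiers up to 10 steps apart (chosen after seeing the data), and 24 to 38 with 1 library left out, the highest without B003 replicate 2.

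The genes called higher in B010 numbered 1733 with a log2 fold change of at least 2 and between 1812 and 3666 with 1 library left out. The lowest were 1812 without B010 replicate 1 and 1923 without B003 replicate 3. Members called higher numbered 130 to 154 over all fits, 130 with limma on log2(FPKM + 1) and 139 to 153 with 1 library left out. None had a negative fold change in any fit. The choice of the genes makes both near certain, so these numbers are a description only. The replicate numbers were not taken to pair the libraries. The correlation of deviations was -0.00, 0.08 and 0.18 between same-numbered libraries and -0.17 to 0.09 between differently numbered ones. With 3 libraries per accession, these values cannot settle whether the libraries were paired. A fit that adds the replicate number as a block called 2760 genes, 152 members and 31 neighbours of members higher in B010. Neighbours of members called higher numbered 23 for members at 0 in B003 (of 88 neighbours) and 24 to 40 of 125 in the other fits, all chosen after seeing the data. Without B003 replicate 3 the share was 19.2%, against 5.93% of the other annotated genes. The median level of the members in B010 stayed between 2.59 and 3.06 CPM. A gene with a low count cannot be told from one at 0 at this depth.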
